A study of Mus musculus with 12 samples.

Results

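Mast cell granule proteases are enzymes that mast cells make in large amounts and store, ready to act, in their secretory granules. Of those on the nCounter myeloid panel, 3 were taken by probe name: Cpa3 (carboxypeptidase A3), Cma1 (a chymase, also called mouse mast cell protease 5) and Tpsb2 (a tryptase, also called mouse mast cell protease 6). They are 3 of the 734 endogenous genes on the panel, and all 3 passed the filter on low counts, which 545 genes passed. Counts came from 12 libraries of bone marrow-derived mast cells, grown in IL-3 from C57BL/6 mice aged 6 to 8 weeks for at least 4 weeks before editing. By CRISPR-Cas9 and a repair template, a ZsGreen reporter with a stop was placed in Kit, the control edit (labelled c-Kit KO), or in Mettl3, which encodes the enzyme that writes the RNA mark m6A (labelled Mettl3 KO), and ZsGreen-positive cells were sorted. Each edit was left resting (US) or stimulated for 4 h with IgE, at 1 µg/ml against DNP, and its antigen HSA-DNP at 0.2 µg/ml (IgE), with 3 replicates in each of the 4 groups.

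Granule proteases bind serglycin proteoglycan inside the granule and leave the cell when antigen crosslinks IgE on its receptor. Carboxypeptidase A3 removes single residues from the C-terminal end of peptides, and tryptases cut after lysine or arginine. Cma1 belongs by sequence to the alpha chymases, although the mouse enzyme cuts after small aliphatic residues, as elastases do. Their transcripts accumulate as mast cells mature and are used as markers of the lineage. The counts below are of transcripts, and the stored proteins were not analysed here.

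The edited genes were looked at first. The scaled count, which is the raw count divided by a housekeeping factor of its library, was 1856, 2856 and 2826 for Kit in resting libraries labelled c-Kit KO (replicates 1, 2 and 3, the order used throughout), and 4057, 2533 and 2456 in those labelled Mettl3 KO. After stimulation Kit had scaled counts of 1159, 1613 and 738 for the label c-Kit KO and of 1845, 1771 and 1550 for the label Mettl3 KO. Kit was thus read in every library labelled c-Kit KO, and the unstimulated groups overlapped. The Kit probe starts at base 4275 of its transcript, downstream of exon 2, where the insert with its stop lies. Loss of Kit transcript was therefore not shown by this probe in the libraries labelled c-Kit KO (log2 fold change at rest, Mettl3 KO against c-Kit KO, 0.26, standard error 0.32, adjusted p = 0.997, edgeR), and whether edited alleles are read past the insert was not tested. No endogenous probe reads Mettl3, so groups are called here by their labels.

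All 9 mast cell markers passed the filter (Fcer1a, Ms4a2, Kit, Cpa3, Cma1, Tpsb2, Hdc, Gata2 and Il1rl1), and together they took 24.9% to 64% of the endogenous counts of a library. The lists for other cells, apart from the eosinophil list, were near the background of the assay, where the mean of the negative control probes was 7.12 to 22.8 counts. The summed scaled count of 8 macrophage genes was 111 to 173 over the libraries, with Adgre1 the most abundant at a mean of 25. For 7 neutrophil genes it was 65.7 to 120 (Mpo the most abundant, mean 17), and Ly6g, S100a8 and Cxcr2 stayed under 20 counts in every library. For 4 dendritic cell genes it was 33.7 to 59.9 (Itgax, 20), for 4 B and T cell genes 49.8 to 96.4 (Cd247, 32.3) and for 4 stromal genes 43.8 to 92.3 (Col1a2, 15.8). The 6 eosinophil genes, led by Ccr3 at a mean of 57.1, had summed scaled counts of 121, 125 and 107 and of 104, 109 and 143 in resting and stimulated libraries labelled c-Kit KO. They had 112, 136 and 79 in unstimulated and 223, 370 and 249 in stimulated libraries labelled Mettl3 KO. In this list Ccr3 was called higher after stimulation for the label Mettl3 KO (adjusted p = 0.00612, edgeR). Siglecf passed the filter only with the stimulated libraries, so no test of it is given. Epx and Prg2, which encode eosinophil granule proteins, did not pass the filter and had at most 24 and 23 raw counts.

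The proteases were among the most strongly read probes of the panel. The 10 most abundant endogenous genes were ranked by mean scaled count, with resting and stimulated libraries pooled. First came Cpa3, Cma1, Fcer1a (the alpha chain of the IgE receptor), Il1rl1 (the IL-33 receptor) and the chemokine genes Ccl1 and Ccl3. Id2, Vwa5a, Tpsb2 and the chemokine gene Ccl2 followed. Cpa3 ranked 1 to 3 in single libraries, Cma1 2 to 4 and Tpsb2 5 to 18. Tpsb2 ranked 5 to 11 in resting and 8 to 18 in stimulated libraries. These ranks are of counts, which depend on each probe's capture as well as on its transcript. Libraries held 504238 to 737910 endogenous counts, so the proteases were counted deeply and counting error was small beside the spread between replicates.

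The genes lie apart in the genome. In GRCm39, Cpa3 has 11 exons on chromosome 3 (20269774 to 20296362, minus strand). Cma1 has 5 exons on chromosome 14 (56178908 to 56182132, minus strand), the chromosome that also carries Mettl3 (52531551 to 52542608). Tpsb2 has 6 exons on chromosome 17 (25585170 to 25588079, plus strand), close to its relative Tpsab1 (25562212 to 25564541, minus strand). The probes start at base 101 (Cpa3), 436 (Cma1) and 502 (Tpsb2) of their transcripts. Over all windows of 100 bases of the Tpsb2 transcript, the best ungapped match in Tpsab1 had a median identity of 67% and reached 93%. Identity at the probe itself was not taken. Whether Tpsab1, which was not analysed here, adds to the Tpsb2 count was not tested. The closest relatives of Cma1 reached 85% (Mcpt4) and 83% (Cma2, Mcpt9), and Cpb1, a relative of Cpa3, reached 72%.

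Cpa3 was lower after stimulation with IgE and antigen in every pair of libraries. Its scaled counts were 218961, 219889 and 190726 in resting and 92230, 140233 and 87129 in stimulated libraries labelled c-Kit KO. Those labelled Mettl3 KO had 142070, 213962 and 229736 without stimulation, and 46250, 82646 and 74671 with it. Every stimulated library was below every unstimulated library of either label, the closest being 140233 and 142070. Stimulated libraries held 42.1%, 63.8% and 45.7% of the scaled Cpa3 count of their same-numbered unstimulated library for the label c-Kit KO, and 32.6%, 38.6% and 32.5% for the label Mettl3 KO. Over both labels the log2 fold change was -1.25 (standard error 0.24, adjusted p = 0.00141, edgeR quasi-likelihood test), lower in 6 of 6 pairs. In bulk RNA, fewer cells with a transcript and less of it per cell cannot be told apart.

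Within the label Mettl3 KO, Cpa3 fell by 1.52 on the log2 scale (standard error 0.34, adjusted p = 0.00554, edgeR), or 2.88-fold. Within the label c-Kit KO its log2 fold change was -0.98 (standard error 0.34, adjusted p = 0.067, edgeR), which did not pass the adjusted threshold of 0.05. Same-numbered libraries deviated together from their group means across the panel, and with the replicate number as a block in the edgeR fit the Cpa3 change in libraries labelled c-Kit KO was -1.01 and passed (adjusted p = 0.0107). The adjusted p of that change ranged from 0.00653 to 0.184 over the 12 alternatives to the processing, of which 6 called it. Under the label Mettl3 KO, Cpa3 passed with 11 of 12 alternatives and missed only with the study's own test once its p was adjusted over the 545 genes, an adjustment the study did not make.

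**Figure D1:**
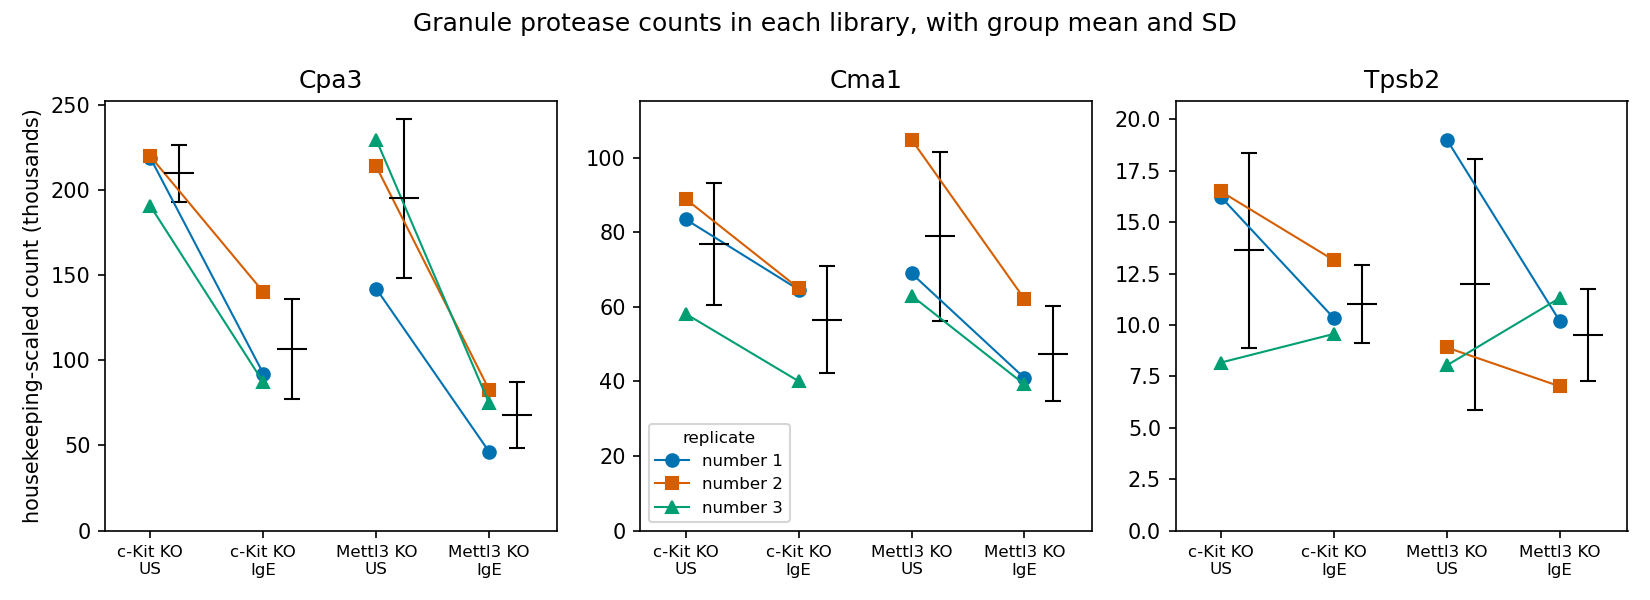
Housekeeping-scaled counts of Cpa3, Cma1 and Tpsb2 on linear axes that start at 0, in each library of the 4 groups. Lines join same-numbered libraries of one label, horizontal bars with whiskers give the group mean and SD (n = 3), and the joined lines fall in 6 of 6 pairs for Cpa3 and Cma1 and in 4 of 6 for Tpsb2.

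Cma1, the chymase, was lower by a smaller factor. Unstimulated libraries labelled c-Kit KO had Cma1 scaled counts of 83512, 88977 and 58162, and stimulated ones 64661, 65028 and 40075. Libraries labelled Mettl3 KO had 69006, 104893 and 63030 without stimulation, and 40928, 62126 and 39192 with it. Replicate 3 was the lowest library of each group. The stimulated and unstimulated groups overlapped for the label c-Kit KO and lay just apart for the label Mettl3 KO (62126 against 63030). Within pairs, stimulated libraries kept 77.4%, 73.1% and 68.9% of the unstimulated scaled Cma1 count for the label c-Kit KO, and a narrow 59.3%, 59.2% and 62.2% for the label Mettl3 KO.

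The Cma1 log2 fold change over both labels was -0.59 (standard error 0.24, adjusted p = 0.067, edgeR quasi-likelihood test) and missed the adjusted threshold. With the replicate block the estimate was the same, -0.59, and passed (adjusted p = 0.00447). Leaving out the stimulated library labelled Mettl3 KO of replicate 2 also took it past the threshold, at -0.71 (adjusted p = 0.0346). Within the label Mettl3 KO the log2 fold change was -0.74 (standard error 0.34, adjusted p = 0.116), and -0.73 with the block (adjusted p = 0.0119, range over 12 alternatives 0.00184 to 0.281). Within the label c-Kit KO it was -0.44 (standard error 0.33, adjusted p = 0.412), and none of the 12 alternatives called it (adjusted p = 0.11 with the block to 0.84). Single libraries moved both values, to -0.48 without resting replicate 2 for the label Mettl3 KO and to -0.25 without stimulated replicate 3 for the label c-Kit KO.

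The size of the Cma1 change rested in part on the scaling. The housekeeping factor was higher in the stimulated library of 6 of 6 pairs, by 0.37, 0.19 and 0.29 on the log2 scale for the label c-Kit KO and by 0.17, 0.19 and 0.07 for the label Mettl3 KO. Unscaled, the stimulated Cma1 count was 100%, 83.1% and 84.4% of the unstimulated one for the label c-Kit KO, and 66.8%, 67.3% and 65.2% for the label Mettl3 KO. For Cpa3 the unscaled figures were 54.4%, 72.5% and 55.9%, and 36.7%, 43.9% and 34.1%. Scaling to the positive control probes gave Cma1 a log2 fold change of -0.40 over both labels, with an adjusted p of 0.288, the highest among its 10 alternatives (lowest 0.000629, DESeq2). Cpa3 passed the threshold under 10 of 10 alternatives, with log2 fold changes from -1.36 to -1.08.

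Tpsb2, the tryptase, showed no difference that passed a test. Unstimulated libraries labelled c-Kit KO had Tpsb2 scaled counts of 16227, 16489 and 8169, and stimulated ones 10331, 13147 and 9561. Those labelled Mettl3 KO had 19013, 8902 and 8030 without stimulation, and 10189, 7013 and 11307 with it. All 4 groups overlapped. In both labels the stimulated library was lower for replicates 1 and 2 and higher for replicate 3, with log2 differences of -0.65, -0.33 and 0.23 for the label c-Kit KO and of -0.90, -0.34 and 0.49 for the label Mettl3 KO. The mean log2 fold change was -0.32 (standard error 0.27, 95% interval -0.91 to 0.27, adjusted p = 0.385, edgeR), so a fall of the size seen for Cma1 was within its interval. Without resting replicate 1 labelled Mettl3 KO it was -0.07, the nearest to 0 of the values with single libraries left out. Tpsb2 gave -0.31 (standard error 0.38) for the label c-Kit KO, which was -0.03 with total-count and -0.09 with positive control scaling and -0.57 (without resting replicate 3) to -0.15 (without resting replicate 2) with single libraries left out. It gave -0.33 (standard error 0.38) for the label Mettl3 KO, which turned to 0.17 without resting replicate 1.

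With only 3 proteases, a count of those that passed says little by itself and is set beside the whole panel. Over both labels 1 of 3 was called lower after stimulation, where 16.3% of the 545 tested genes were, and with the replicate block 2 of 3, where 20.6% were. The panel's count of lower genes moved with the scaling, from 89 of 545 to 44 with positive control scaling, 60 with total counts and 115 with TMM, while Cpa3 was called under each and Cma1 only with TMM. For the label Mettl3 KO 1 of 3 was called, against 10.6% of tested genes, and with the block 2 of 3, against 15%. The panel's count of lower genes for this label was 58, against 18 with positive control scaling and 87 with TMM. For the label c-Kit KO 0 of 3 were called by edgeR, against 6.79%, although Cpa3 had an unadjusted p under 0.05 and DESeq2 called it, and with the block 1 of 3, against 12.3%. By the thresholds named in the study's methods (unadjusted p of at most 0.05 and at least 1.5-fold), applied to the edgeR fit, 1 of 3 was lower for the label c-Kit KO (Cpa3; 14.9% of tested genes) and 2 of 3 for the label Mettl3 KO (Cpa3 and Cma1; 15.8%). With the study's own test in place of edgeR, the same thresholds called Cpa3 alone, 1 of 3, for the label c-Kit KO (9.72% of tested genes) and for the label Mettl3 KO (12.5%). Stimulated scaled counts lay wholly below unstimulated ones for 1 of 3 in the label c-Kit KO (15.4% of tested genes) and for 2 of 3 in the label Mettl3 KO (17.6%). The median log2 fold change of the 3 over both labels was -0.59, beside -0.02 for all tested genes. That median of all tested genes was 0.15 with total-count scaling, 0.14 with positive control scaling, 0.11 with the better counted housekeeping probes and -0.11 with TMM normalization, and the estimates of all 3 proteases stayed below 0 under each of these.

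The share of all endogenous counts needs no housekeeping probe. The 3 proteases together took 46.1%, 45.3% and 43.7% of the endogenous counts of resting libraries labelled c-Kit KO, against 29.7%, 34.6% and 28.6% of stimulated ones. In libraries labelled Mettl3 KO they took 36.7%, 41% and 47.7% without stimulation, and 14.6%, 18.2% and 25.3% with it. The summed share was 45.1% ± 1.26 and 31% ± 3.2 (SD, n = 3 each) for the label c-Kit KO, and 41.8% ± 5.55 and 19.4% ± 5.42 (SD, n = 3 each) for the label Mettl3 KO, resting and stimulated. Every stimulated library gave a smaller part of its counts to the proteases than any resting library. The sum is given as a description, with no test.

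**Figure D2:**
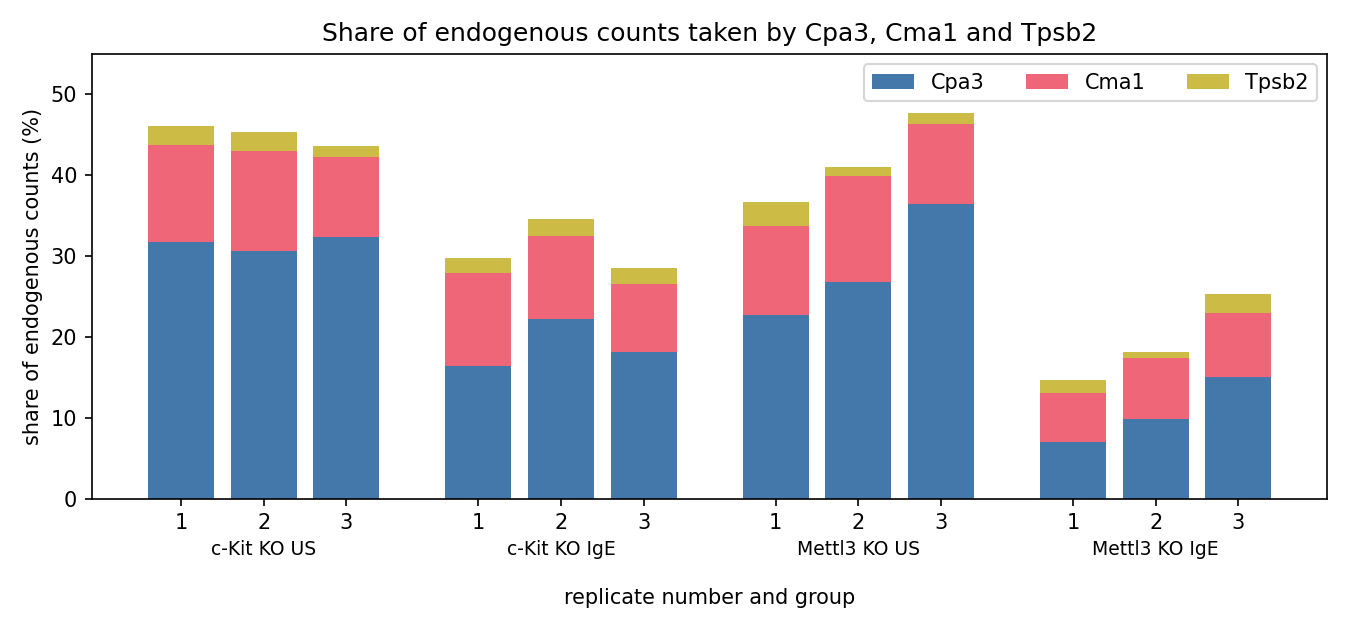
Stacked bars give the percent of endogenous counts taken by Cpa3, Cma1 and Tpsb2 in each of the 12 libraries, by group and replicate number. The bars reach 36.7% to 47.7% in resting libraries and 14.6% to 34.6% in stimulated ones, and most of the difference is in Cpa3.

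Cpa3 was the largest part of that share in each library. It took 31.7%, 30.6% and 32.4% of counts in resting libraries labelled c-Kit KO. Stimulated libraries of that label gave it 16.4%, 22.2% and 18.2%. Under the label Mettl3 KO its shares were 22.7%, 26.8% and 36.4% without stimulation, and 6.96%, 9.91% and 15.1% with it. The resting libraries labelled c-Kit KO were almost alike (coefficient of variation 2.83%), and those labelled Mettl3 KO were not (24.7%). Over both labels the Cpa3 share fell by 15.30 percentage points (two-sided exact permutation test within labels, p = 0.005, the smallest its 400 arrangements can give). Adjusted over the 545 tested genes the exact p was 0.0189.

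Cma1 took 12.1%, 12.4% and 9.88% of counts in resting libraries labelled c-Kit KO, against 11.5%, 10.3% and 8.39% in stimulated ones. Under the label Mettl3 KO the Cma1 shares were 11%, 13.1% and 10% without stimulation, and 6.16%, 7.45% and 7.92% with it. Its share fell by 2.80 percentage points over both labels (exact permutation test, p = 0.015, adjusted p = 0.0433), with overlapping groups for the label c-Kit KO. Tpsb2 took 2.35%, 2.3% and 1.39%, then 1.83%, 2.08% and 2% for the label c-Kit KO, and 3.03%, 1.11% and 1.27%, then 1.53%, 0.841% and 2.28% for the label Mettl3 KO. The Tpsb2 share differed by -0.15 percentage points (exact permutation test, p = 0.7), its groups overlapped, and without resting replicate 1 labelled Mettl3 KO the difference was 0.16. By an exact sign permutation over the same-numbered pairs, both Cpa3 and Cma1 had the smallest p it can give, 0.0312, which adjusted over the tested genes was 0.0754 and called no gene, with the pairs counted as independent. Without the pairing, a lower share was called for 2 of 3 proteases and for 8.99% of tested genes. The 95% Wilson intervals of these shares were at most 0.257 (Cpa3), 0.18 (Cma1) and 0.0855 (Tpsb2) percentage points wide and cover counting error only.

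A share also moves with the other counts. Scaled endogenous counts outside the 3 proteases were 365251 ± 31020 and 382998 ± 37530 (SD, n = 3 each) in resting and stimulated libraries labelled c-Kit KO. They were 399213 ± 70754 and 539660 ± 157853 (SD, n = 3 each) in those labelled Mettl3 KO, where the stimulated libraries held 567384, 681814 and 369781. The rest of the panel was therefore read more strongly in 2 of 3 stimulated libraries labelled Mettl3 KO than in any other library.

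The proteases did not move by one common factor. The ratio of 2 probes in one library depends on no scaling, and only its change is compared because its level mixes in each probe's capture. The log2 ratio of Cpa3 over Cma1 was 1.39, 1.31 and 1.71 in resting libraries labelled c-Kit KO, against 0.51, 1.11 and 1.12 in stimulated ones. Under the label Mettl3 KO it was 1.04, 1.03 and 1.87 without stimulation, and 0.18, 0.41 and 0.93 with it. Stimulated libraries were lower in 6 of 6 pairs and wholly below the unstimulated ones within each label. The mean difference was -0.68 (two-sided exact permutation test within labels, p = 0.005, the smallest possible, adjusted over the 3 pairs of proteases p = 0.015). Cpa3 thus fell further than Cma1.

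Cpa3 over Tpsb2 had log2 ratios of 3.75, 3.74 and 4.55 without and 3.16, 3.41 and 3.19 with stimulation for the label c-Kit KO. For the label Mettl3 KO these were 2.90, 4.59 and 4.84 without and 2.18, 3.56 and 2.72 with it, where the groups overlapped. The mean difference was -1.02 (exact permutation test, p = 0.04, adjusted p = 0.06), lower in 6 of 6 pairs. An exact sign permutation over the 6 same-numbered pairs gave p = 0.0312 for this ratio and for Cpa3 over Cma1, the smallest it can give (adjusted p = 0.0469 each). It counts the pairs as independent, whereas pairs of one number may share a set of cells, and flips over 3 sets could not reach 0.05, so no call is based on it. The exact permutation p rose to 0.06 without resting replicate 2 or 3 labelled Mettl3 KO, to 0.085 without stimulated replicate 1 and to 0.08 without stimulated replicate 3. Tpsb2 over Cma1 was -2.36, -2.43 and -2.83, then -2.65, -2.31 and -2.07 for the label c-Kit KO, and -1.86, -3.56 and -2.97, then -2.01, -3.15 and -1.79 for the label Mettl3 KO. Its mean difference was 0.34 (exact permutation test, p = 0.295, adjusted p = 0.295), higher in 4 of 6 pairs, so that a difference between these 2 genes in their response was not shown.

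**Figure D3:**
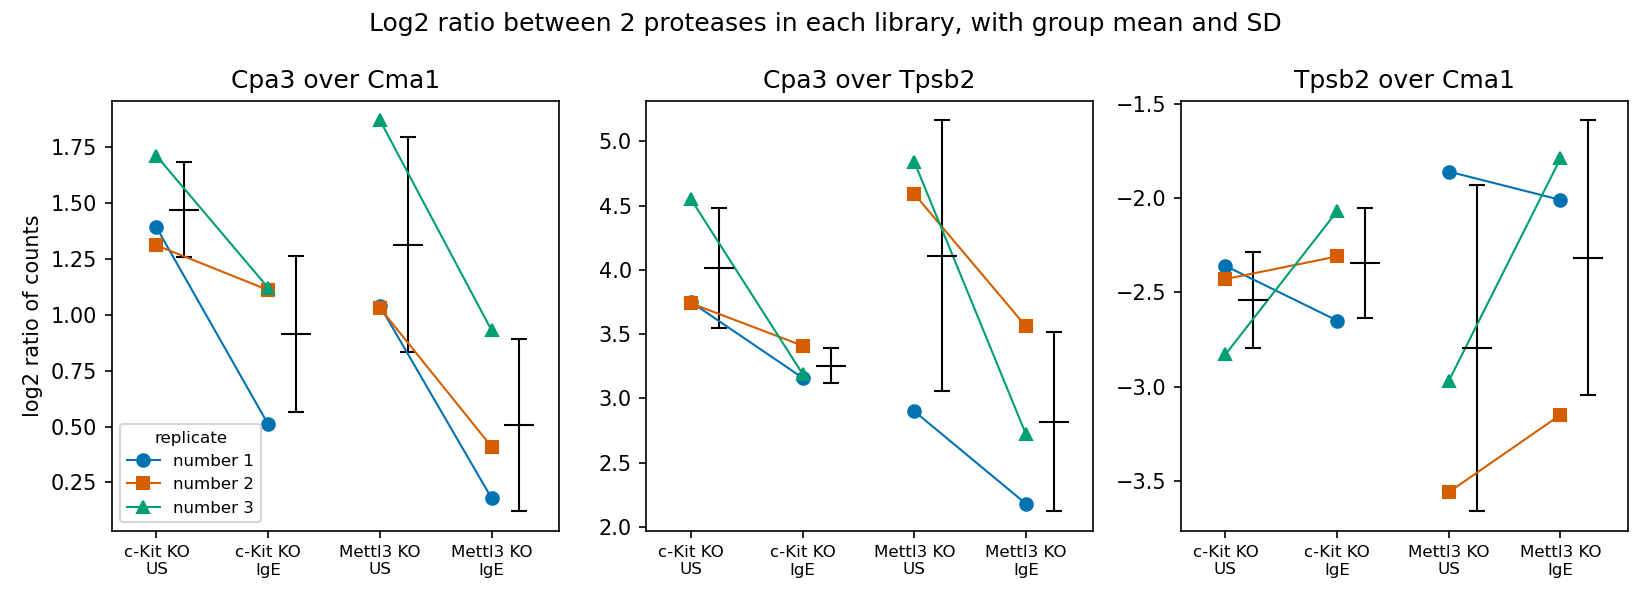
Log2 ratio of counts between 2 proteases in each library, by group, with lines joining same-numbered libraries of one label and bars for the group mean and SD (n = 3). Cpa3 over Cma1 and Cpa3 over Tpsb2 fall in 6 of 6 pairs, and Tpsb2 over Cma1 rises in 4 of 6.

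The edits were compared next, label against label. With no unedited group, an effect of the Mettl3 edit and one of the Kit edit cannot be told apart. Without stimulation the libraries labelled Mettl3 KO and c-Kit KO overlapped for each protease. The log2 fold changes, Mettl3 KO against c-Kit KO, were -0.10 for Cpa3 (standard error 0.33, 95% interval -0.83 to 0.62), 0.04 for Cma1 (0.33, -0.69 to 0.77) and -0.19 for Tpsb2 (0.38, -1.02 to 0.65). The sign for Cma1 turned under 4 of 12 alternatives, among them TMM normalization and total-count scaling, and without resting replicate 3 labelled c-Kit KO (-0.13) or replicate 2 labelled Mettl3 KO (-0.22). It also turned for Cpa3 without resting replicate 1 labelled Mettl3 KO (0.08) and for Tpsb2 without replicate 3 (0.03). None of the 3 was called, and 0% of tested genes were (edgeR; 7 had an unadjusted p under 0.05, and DESeq2 called 0).

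After stimulation Cpa3 read lower under the label Mettl3 KO than under c-Kit KO for each of the 3 replicate numbers, with log2 differences of -1.00, -0.76 and -0.22. Its scaled counts, 46250 to 82646 against 87129 to 140233, did not overlap, and no share of tested genes is given for such a separation by scaled count. The log2 fold change was -0.65 (standard error 0.34, 95% interval -1.38 to 0.08, adjusted p = 0.404, edgeR), which did not pass, nor did it with the replicate block (adjusted p = 0.15) or any of 12 alternatives (0.0821 to 0.627). Leaving out single libraries gave -0.82 to -0.40, the latter without stimulated replicate 2 labelled c-Kit KO. For Cma1 it was -0.26 (standard error 0.33, adjusted p = 0.79), with pair differences of -0.66, -0.07 and -0.03, and for Tpsb2 -0.21 (standard error 0.38, adjusted p = 0.846). Positive control scaling gave -0.58 and -0.45, and single libraries left out gave -0.50 to -0.14 for Cma1 and -0.36 to -0.04 for Tpsb2, where the library left out was stimulated replicate 2 labelled Mettl3 KO for both -0.50 and -0.04. None of the 3 was called, where 0.917% of tested genes were, a count of 5 that was 23 by DESeq2 and ran from 0 to 33 with single libraries left out (33 without stimulated replicate 3 labelled Mettl3 KO). By share of counts, stimulated libraries labelled Mettl3 KO lay wholly below those labelled c-Kit KO for 2 of 3, Cpa3 and Cma1, as for 3.49% of tested genes. Those differences were -8.30 and -2.89 percentage points (exact permutation test, p = 0.1 each, the smallest that 3 against 3 can give). The summed eosinophil genes were higher in all 3 stimulated libraries labelled Mettl3 KO than in any other. They took at most 0.0503% of the endogenous counts of a library. The counts outside the proteases were higher in 2 of 3, as given above, and the part of either in the lower shares was not tested.

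Whether stimulation acted differently under the 2 labels was tested by the interaction. It was -0.55 for Cpa3 (standard error 0.47, 95% interval -1.58 to 0.48, adjusted p = 0.993, edgeR), -0.29 for Cma1 (standard error 0.47, adjusted p = 0.993) and -0.03 for Tpsb2 (standard error 0.54, adjusted p = 0.993). With single libraries left out it ran from -0.73 to -0.30 for Cpa3, the latter without stimulated replicate 2 labelled c-Kit KO, and from -0.54 to -0.04 for Cma1, the latter without resting replicate 2 labelled Mettl3 KO. None of the 3 was called, and 0% of tested genes were (edgeR; 23 had an unadjusted p under 0.05, and DESeq2 called 2, while edgeR called 5 without stimulated replicate 3 labelled Mettl3 KO). The greater fall of Cpa3 under the label Mettl3 KO than under c-Kit KO was thus not shown to be a difference between them.

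Other genes of the mast cell program give these values a setting. Of 8 other mast cell genes, 5 were lower and 1 was higher after stimulation over both labels (edgeR, adjusted p under 0.05), with a median log2 fold change of -0.75. Of all 545 tested genes, 89 were lower and 134 higher, with a median of -0.02. The count of lower genes was 3 with positive control, total-count or better counted housekeeping scaling, where Hpgds and Gata2 no longer passed. The alpha and beta chains of the IgE receptor fell. Ms4a2, the beta chain, went from 8292 ± 1388 to 2356 ± 997 scaled counts (SD, n = 3 each) for the label c-Kit KO and from 9343 ± 2080 to 2046 ± 360 for the label Mettl3 KO, which is -2.00 on the log2 scale (standard error 0.24, adjusted p = 4.97e-05). Fcer1a, the alpha chain, changed by -1.31 (standard error 0.31, adjusted p = 0.00471). Kit changed by -0.96 (standard error 0.23, adjusted p = 0.00517). It passed for the label c-Kit KO, where Kit is the edited gene (-1.10, adjusted p = 0.0334, edgeR). For the label Mettl3 KO it did not (-0.81, adjusted p = 0.0727, edgeR). Hpgds, the hematopoietic prostaglandin D synthase, changed by -0.99 (0.36, adjusted p = 0.0418) and Gata2, a lineage transcription factor, by -0.54 (0.15, adjusted p = 0.0129). Hdc, which makes the histamine stored beside the proteases, rose by 2.25 (standard error 0.47, adjusted p = 0.00258). Gata1 (-0.20, standard error 0.16) and Il1rl1 (0.12, standard error 0.23) did not pass. In the main fit Cpa3 (-1.25) and Cma1 (-0.59) thus lay inside the range of the lineage genes that were lower, with Gata2 nearest to 0. Under the scalings where Gata2 did not pass, Cma1 was -0.40 (positive control), -0.43 (total-count) and -0.47 (better counted housekeeping). Its place in that range is therefore given for the main fit only.

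Of 9 proteins of other leukocyte granules, only Ctsg, Mpo and Klk1 passed the filter, and none of these 3 was called after stimulation over both labels by edgeR or DESeq2 or had an unadjusted p under 0.05. No median is given for this list, because Mpo and Klk1 were near the background of the assay. Ctsg (cathepsin G, a serine protease of neutrophils and mast cells) had scaled counts of 1086, 163 and 989, then 777, 149 and 367 in libraries labelled c-Kit KO. It had 485, 192 and 933, then 339, 233 and 269 in those labelled Mettl3 KO. Replicate 2 was the lowest library in each of the 4 groups, and the log2 fold change was -0.86 (standard error 0.52, adjusted p = 0.211). Mpo and Klk1 stayed at 28 raw counts or fewer, so no fold is given for them. Elane, Gzma, Prg2, Prg3, Epx and Camp were below the filter. Apart from Ctsg, the genes of this list were thus near background.

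Among 24 cathepsins and other peptidases, 15 were tested, with a median log2 fold change of -0.03 after stimulation over both labels. Of these, 2 were lower, where 89 of all 545 tested genes were. The membrane protease gene Adam8 rose by 1.18 (standard error 0.35, adjusted p = 0.0156), and 134 of the 545 tested genes were called higher. Adamts9 (a metalloproteinase gene) and Ctsl (cathepsin L) passed the filter only through stimulated libraries. Their resting scaled counts were 6.85 to 19.5 and 6.85 to 15.6, at the level of the negative controls. Their values are therefore given without fold or test. Stimulated libraries had Adamts9 scaled counts of 20.1 to 57.1. Ctsl had 29.8 to 63.1 in stimulated libraries labelled Mettl3 KO and 8.48 to 21.2 in those labelled c-Kit KO. Ctsd (cathepsin D) was among the lower ones, and the count of lower genes ran from 0 with positive control scaling to 4 with TMM. Of 8 protease inhibitors 6 were tested (median log2 fold change 0.37) and 2 were higher, among them Serpinb9, an inhibitor of granzyme B (1.45, standard error 0.32, adjusted p = 0.00321). Serpinb6a gave 0.30 (standard error 0.19, adjusted p = 0.253). All 4 exocytosis genes were tested (median log2 fold change -0.14, and 0.02 with total-count scaling). Rab3d, a small GTPase of secretory granules, was lower (-1.33, standard error 0.27, adjusted p = 0.00197). Scin (-0.39, standard error 0.19) and Rab20 (0.38, standard error 0.19) did not pass. With total-count scaling 1 of the 4 was called higher.

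The genes whose level was most like each protease were taken by Pearson r of log2(scaled count + 1) over the 12 libraries, which share groups and replicate numbers, so r is a description. For Cpa3 they were Fcgr3 (r = 0.98), an Fc receptor for IgG, Gata6 (0.96) and Kitl (0.95), the last 2 at no more than 113 and 115 scaled counts. For Cma1 they were Fcer1a (0.95), Hist1h1c (0.92) and H2-Ob (0.88), the last at no more than 133 scaled counts. For Tpsb2 they were Ifna1 (0.82), at no more than 81.2 scaled counts, Ncor1 (0.71), at no more than 203, and Cd47 (0.70). Spearman rho kept Fcgr3 and Kitl for Cpa3, Fcer1a for Cma1, and Ifna1 and Cd47 for Tpsb2 among the closest 3. Between the proteases r was 0.78 for Cpa3 and Cma1, 0.28 for Cma1 and Tpsb2 and 0.23 for Cpa3 and Tpsb2.

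The scaled counts of Cpa3 and Cma1 were both lower in 6 of 6 pairs, although Cma1 missed the adjusted threshold. The housekeeping factor was higher in the stimulated library of each pair, as given above. Unscaled, Cma1 had 60971 counts in resting and 61010 in stimulated replicate 1 labelled c-Kit KO. The bases before the start sites of Cpa3 and Cma1 are shown. RefSeq (GRCm38.p6) gave a promoter for 2 of 3 proteases, Cpa3 (chr3:20242182-20242431, minus strand) and Cma1 (chr14:55944676-55944925, minus strand), and Tpsb2 is named only. Both strands were searched for GATAA, the core read by GATA factors, and for CANNTG, the E-box read by basic helix-loop-helix factors such as Mitf, and the matches, which do not overlap, are in capitals.
Cpa3: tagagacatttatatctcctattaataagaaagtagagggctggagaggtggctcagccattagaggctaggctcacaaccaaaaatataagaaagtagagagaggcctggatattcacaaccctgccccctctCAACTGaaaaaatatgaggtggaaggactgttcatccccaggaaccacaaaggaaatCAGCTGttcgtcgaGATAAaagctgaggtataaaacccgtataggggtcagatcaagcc
Cma1: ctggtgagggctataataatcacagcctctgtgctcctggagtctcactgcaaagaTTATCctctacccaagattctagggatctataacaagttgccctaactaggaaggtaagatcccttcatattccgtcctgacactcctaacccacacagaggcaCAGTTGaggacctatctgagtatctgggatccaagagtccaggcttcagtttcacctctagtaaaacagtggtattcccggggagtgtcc
The Cpa3 window of 250 bases holds 1 GATAA and 2 CANNTG matches, and the Cma1 window 1 of each. Of all 32851 promoter windows of this length, 22.6% hold GATAA, 66.2% hold CANNTG and 15.9% hold both. Such matches are thus common, and whether a factor binds at these was not tested.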

How the data were processed

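From 40 ng of RNA per sample on the nCounter panel, the authors deposited raw barcode counts per probe, with no scaling, for 734 endogenous, 20 housekeeping, 8 negative and 6 positive control probes. Summary columns were not used, and 0 sample columns were left unmatched. Housekeeping probes were recognised from their place in the table. Counts were divided by the geometric mean of these 20 probes, relative to its mean over the libraries. Genes that reached 20 counts in 3 or more libraries were tested with edgeR 4.0.16 (R 4.3.3), quasi-likelihood, 1 model of 4 groups, Benjamini-Hochberg over the 545 genes, called at an adjusted p under 0.05. Shares and ratios were tested by two-sided exact permutation with scipy 1.17.1 and Python 3.11.15, within labels for stimulation. Alternatives used DESeq2 1.42.0 and limma 3.58.1. The t-test among them was run here on log2 scaled counts, and the study's own software and scaling were not rerun. The tests were tried on simulated data. Members, gene lists and rules for naming genes (every tested gene of the mast cell and granule lists, and the 3 smallest p in each other list, of which some are not reported here) were chosen with earlier results of these data known. Same-numbered libraries correlated in their deviations from group means (r = 0.14 to 0.52 over 18 pairs, each above 0.1), and the series' description speaks of 3 sets of cells, so replicate numbers were taken to pair libraries. The labels do not say what the number marks, and a table of the study numbers 1 library, stimulated replicate 3 labelled Mettl3 KO, differently, so paired values and the block rest on an assumption.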

Additional observations from a re-analysis of the deposited data

How the results depend on the processing

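Of the values recomputed under other settings, 494 kept their direction and side of the threshold, while 18 reversed, 16 passed it newly, 5 no longer passed and 18 counts of called genes moved, and the causes were not tested. The panel's lower calls for the label c-Kit KO fell from 37 to 9 with positive control and 14 with total-count scaling. The stimulation change of Cma1 over both labels (-0.59) passed with TMM (-0.68), DESeq2 (-0.64), a filter at a mean of 50 counts (-0.59), background subtraction (-0.59) and the replicate block (-0.59), and ran from -0.71 to -0.46 as single libraries were left out. Under the label Mettl3 KO Cma1 (-0.74) passed with TMM (-0.91), DESeq2 (-0.86), total-count scaling (-0.67) and the block (-0.73). For the label c-Kit KO Cpa3 (-0.98) passed with TMM (-1.00), DESeq2 (-0.97), the filter at a mean of 50 (-0.98), background subtraction (-0.98), limma (-1.01) and the block (-1.01). The Cpa3 change for the label Mettl3 KO (-1.52) missed the threshold only by the t-test run here, with an adjustment the study did not make (-1.54, adjusted p 0.0583).

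Signs turned for small estimates. Cma1 between resting labels (0.04) was -0.01 with TMM, -0.04 with DESeq2, -0.16 with positive control scaling and -0.01 with total-count scaling, and -0.22 to 0.18 with single libraries left out. Leaving out libraries moved Cpa3 between resting labels from -0.24 to 0.08, Tpsb2 between resting labels from -0.69 to 0.03, and Tpsb2 after stimulation for the label Mettl3 KO from -0.55 to 0.17. The Tpsb2 interaction (-0.03) was 0.02 with better counted housekeeping probes, 0.00 with limma, 0.02 with the block and -0.25 to 0.47 with libraries left out. The Tpsb2 share difference over both labels ran from -0.33 to 0.16 percentage points and the Cpa3 to Tpsb2 ratio change from -1.32 to -0.84.

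Counts of called genes moved. Stimulation for the label c-Kit KO called 103 genes, and 49 by the t-test run here with an adjustment added (124 at the study's own thresholds). It called 156 with the block and 46 (without resting replicate 1) to 107 with libraries left out. Under the label Mettl3 KO it called 178, and 68 by that adjusted t-test (178 at the study's thresholds). Between stimulated labels 5 were called, 23 by DESeq2, 2 with positive control scaling, 0 with background subtraction, by the adjusted t-test (30 at the study's thresholds) or with only the groups compared, and 0 to 33 with libraries left out. The interaction called 0, DESeq2 2, and 0 to 5 with libraries left out. Both highest counts came without stimulated replicate 3 labelled Mettl3 KO.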

Other observations

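Some values also differed by replicate number within a group. Tpsb2 in libraries of replicate 2 was lower under the label Mettl3 KO than under the label c-Kit KO by a log2 difference of -0.89 without stimulation and of -0.91 with it, while replicate 1 gave 0.23 and -0.02 and replicate 3 gave -0.02 and 0.24. Hdc, which makes histamine and rose with stimulation, was highest in replicate 3 of each group, with scaled counts of 658 against 181 and 322 in resting libraries labelled c-Kit KO and of 738 against 125 and 269 in those labelled Mettl3 KO. After stimulation it had 2924 against 1134 and 1358, and 2687 against 1217 and 1569. Cma1 was lowest in replicate 3 of the same groups. What sets the numbers apart was not tested.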
